A study of Mus musculus with 12 samples.

Results

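The integrated stress response genes Atf4, Atf5, Atf3, Ddit3, Trib3, Ppp1r15a, Asns, Chac1, Ddit4 and Fgf21 were followed by their symbols through RNA sequencing of mouse white fat and of cultured adipocytes, with and without Xap5. All 10 genes are listed in both count tables, among 26639 genes listed for white fat and 22851 for the cultures. Fam50a is the mouse gene of Xap5, a protein of the nucleus. Its deletion used Cre driven by the adiponectin promoter, which is active in mature adipocytes, so the other cells of the fat pad keep the gene. The 4 groups held 3 libraries each. White adipose tissue (WAT) came from conditional knockout (cKO) mice and from wild-type (WT) mice on postnatal day 42. Cultured adipocytes, knockout (KO) and WT, were collected on day 8 of adipogenic induction and began as pre-adipocytes from the white fat of newborn cKO or WT animals. Both culture groups had been exposed to insulin, dexamethasone and IBMX during induction. The study asked how Xap5 bears on adipocyte development and death. Whether replicate libraries were made from different mice or dishes is not stated in the labels. The p-values therefore cover only the spread between libraries, which may be technical.

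In the integrated stress response, the kinases PERK, GCN2, PKR and HRI each phosphorylate the translation initiation factor eIF2alpha under a different stress. General translation then slows because eIF2B, which recharges eIF2 with GTP, is inhibited, while translation of a few mRNAs such as Atf4 increases. The transcription factor ATF4 then raises genes for amino acid supply, for further transcription factors such as CHOP (Ddit3) and ATF3, and for GADD34 (Ppp1r15a), which ends the response by bringing protein phosphatase 1 to eIF2alpha. Since much of the control of ATF4 lies in translation, mRNA counts do not show how much ATF4 protein was made.

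ATF4 binds DNA with C/EBP partners at elements of the form TGATGNAA, and promoter windows of the members were searched for these letters on both strands. The windows run from 250 bases before to 50 bases after a gene's annotated start and come from RefSeq on the build GRCm38.p6. The 10 members matched 11 windows, since Atf5 has 2 annotated starts. The letters were found in windows of 5 members, Atf3, Chac1, Fgf21, Asns and Trib3. They were found in 3.97% of 32851 windows of the whole table, and 4.51% of 27025 genes had at least 1 such window. With the stricter form TGATGCAA, the matches were in 3 members, Atf3, Chac1 and Fgf21, and in 0.895% of all windows and 1.03% of genes. The palindrome TGACGTCA, the cAMP response element, was found in 1 member, Ppp1r15a, and in 1.79% of all windows and 2.03% of genes. The 6 matched stretches are shown because they mark which members carry such letters near the start. Each is printed on the strand of its gene, with the matched 8 letters in capitals. A match found as TTNCATCA is the same element read on the opposite strand.
Atf3: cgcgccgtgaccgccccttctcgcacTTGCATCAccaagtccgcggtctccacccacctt
Chac1: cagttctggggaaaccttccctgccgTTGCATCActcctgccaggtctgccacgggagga
Fgf21: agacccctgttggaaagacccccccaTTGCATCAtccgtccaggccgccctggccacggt
Asns: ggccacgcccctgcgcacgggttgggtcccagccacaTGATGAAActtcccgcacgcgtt
Trib3: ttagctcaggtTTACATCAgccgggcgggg
Ppp1r15a: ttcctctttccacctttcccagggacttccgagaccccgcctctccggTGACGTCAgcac
The Atf3 stretch is chr1:191183410-191183469 and the Chac1 stretch is chr2:119351023-119351082, on the minus and the plus strand. The Fgf21 stretch is chr7:45615596-45615655, the Asns stretch chr6:7693210-7693269 and the Trib3 stretch chr2:152344028-152344057, all on the minus strand. The Ppp1r15a stretch is chr7:45526269-45526328, also on the minus strand. The matches begin at -193 in Chac1, -139 in Fgf21, -110 in Atf3, -23 in Asns and -12 in Ppp1r15a relative to the start, and at 15 in Trib3, inside the transcribed part. No match in the windows of Atf4, Atf5, Ddit3 and Ddit4 says only that these letters are not in these windows. In the tests described next, the 5 members with TGATGNAA letters included genes that were higher in cKO WAT (Atf3 and Trib3), genes that were lower (Asns and Chac1) and 1 that did not pass (Fgf21).

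**Figure D1:**
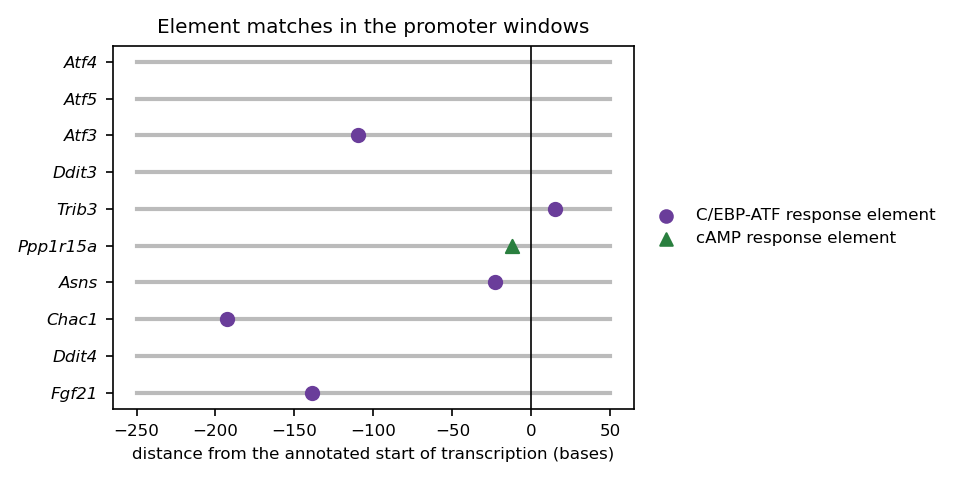
Position of matched letters in the promoter windows of the integrated stress response genes, in bases relative to the annotated start (horizontal axis), 1 line per member with TGATGNAA and TGACGTCA matches marked. Matches lie between -193 and 15, in 5 members for TGATGNAA and in 1 member for TGACGTCA.

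Total counts lay between 33132906 and 33997204 in cKO WAT and between 28844370 and 30704234 in WT WAT. The KO cultures had 10863158, 21773610 and 21170115 counts, and the WT cultures had 11601138 to 12401278. Fam50a, the targeted gene, was at 23.3, 16.8 and 28.9 CPM in cKO WAT, against 35.3, 32.5 and 36.5 CPM in WT WAT. In culture it was at 46.2, 42.9 and 41.1 CPM in KO, against 57.9, 52.0 and 45.2 CPM in WT, and these groups overlapped. CPM stands for read counts relative to library size, here scaled with TMM factors (trimmed mean of M-values). Reads from undeleted exons stay in such a count, so it does not check the deletion. Some WAT libraries stood apart by markers of other tissues. The summed epithelial markers were at 962 CPM in cKO replicate 3, against 3.6 to 48 CPM in WT libraries, and the summed skeletal muscle markers were at 1340 CPM in cKO replicate 1 and 1735 CPM in WT replicate 3.

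In cKO WAT the integrated stress response genes were called in both directions. The transcription factors Atf3, Atf4 and Ddit3, the pseudokinase gene Trib3 and the phosphatase subunit gene Ppp1r15a were higher than in WT, by 1.70-fold to 21.5-fold. Asns, Chac1 and Ddit4 were lower, by 2.07-fold to 3.34-fold. Atf5 and Fgf21 did not pass. These calls are at an adjusted p under 0.05 from edgeR's quasi-likelihood test over 16293 genes, with Benjamini-Hochberg adjustment, and every adjusted p below is from this kind of fit. Of all genes tested, 28.2% were called higher and 24.2% lower, against 5 and 3 of the 10 members. The lower count is near the share of all genes. Of its calls, that of Asns was lost in 4 and that of Chac1 in 6 of 15 alternatives. The members' median log2 fold change was 0.90, and that of all genes tested was 0.12. The members' median was 0.42 without cKO replicate 2, and it was 1.56 with scaling by library size only, where that of all genes was 0.80. The cKO and WT libraries did not overlap for those 8 members, 5 higher and 3 lower. The calls of the 5 higher members and of Ddit4 held in all 15 alternative fits, which include leaving out each library in turn. With library size only, 5 members were higher and 1 lower, against 54.2% and 8.76% of all genes. Under that scaling the higher count was thus near the share of all genes. Groups did not overlap for 35.1% of all genes in the higher direction and for 29.3% in the lower direction. In bulk tissue, fewer cells of a type and less RNA per cell cannot be told apart.

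Atf4, the central transcription factor of the response, was at 244, 282 and 213 CPM in cKO WAT replicates 1 to 3, against 137, 165 and 132 CPM in WT WAT. The lowest cKO library lay above the highest WT library. The log2 fold change was 0.77, with a standard error (SE) of 0.16 and an adjusted p of 0.00598. Atf5 encodes a related factor whose translation also depends on eIF2alpha phosphorylation. It was at 181, 268 and 127 CPM in cKO WAT and at 234, 226 and 285 CPM in WT WAT, so the groups overlapped. Its log2 fold change was -0.37 (95% interval -0.998 to 0.25, adjusted p = 0.273). Without cKO replicate 2, the one high cKO library, Atf5 was lower in cKO WAT (-0.71, adjusted p = 0.0226, against 0.0226 to 0.990 over the alternatives), and with scaling by library size only its log2 fold change was 0.30.

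Atf3 encodes a stress-inducible factor that many signals raise besides ATF4, and it had the largest change of the members. It was at 172, 94.9 and 182 CPM in cKO WAT, against 5.36, 8.72 and 6.78 CPM in WT WAT. The means were 150 ± 47.6 CPM in cKO and 6.95 ± 1.69 CPM in WT (SD, n = 3 each). The log2 fold change was 4.43 (SE 0.32, adjusted p = 4.34e-04). Ddit3 encodes CHOP, a factor that takes part in cell death under prolonged stress. It was at 91.0, 118 and 62.1 CPM in cKO WAT, against 18.9, 27.9 and 20.3 CPM in WT WAT. Every cKO library was above every WT library, with a log2 fold change of 2.01 (SE 0.27, adjusted p = 0.00129).

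Trib3 encodes a pseudokinase that is raised by ATF4 and CHOP and can bind AKT. It was at 93.6, 144 and 45.1 CPM in cKO WAT, against 14.5, 28.4 and 13.9 CPM in WT WAT. The cKO libraries spread over a wide range, and the log2 fold change of 2.32 carried the larger SE of 0.47 (adjusted p = 0.00566). Ppp1r15a was at 53.6, 70.0 and 34.7 CPM in cKO WAT, against 20.3, 21.4 and 17.5 CPM in WT WAT. The groups did not overlap, and the log2 fold change was 1.42 (SE 0.25, adjusted p = 0.00352).

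Asns encodes asparagine synthetase, a classical ATF4 target of amino acid supply. In cKO WAT it was at 108, 165 and 71.4 CPM, against 200, 259 and 252 CPM in WT WAT. The fall was 2.07-fold (log2 fold change -1.05, SE 0.29, adjusted p = 0.0209). Chac1 encodes an enzyme that degrades glutathione. It was at 2.24, 4.03 and 0.838 CPM in cKO WAT, against 8.67, 7.80 and 7.23 CPM in WT WAT, and its log2 fold change was -1.74 (SE 0.52, adjusted p = 0.0257). Both genes were lower in all 3 cKO libraries, but both calls were close to the threshold. The Asns call was lost with scaling by library size only (-0.38, adjusted p = 0.262, the highest value over its alternatives, which reached down to 9.87e-04). It was also lost without cKO replicate 1 (adjusted p = 0.0683), WT replicate 2 (0.0749) or WT replicate 3 (0.0624). Scaling by library size only ended the Chac1 call (-1.08, adjusted p = 0.0978, the highest of its alternatives) as did removal of a trend with transcript length and GC content (-1.36, adjusted p = 0.0636). It was lost without cKO replicate 1 (adjusted p = 0.0746) or WT replicate 1 (0.0695), 2 (0.0722) or 3 (0.0567), and it was at -2.38 without cKO replicate 2.

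Ddit4 encodes REDD1, an inhibitor of mTORC1 that stress, hypoxia and glucocorticoids raise. It was at 24.5, 34.9 and 27.7 CPM in cKO WAT, against 113, 85.8 and 87.0 CPM in WT WAT. All cKO libraries were far below all WT libraries, with a log2 fold change of -1.71 (SE 0.18, adjusted p = 7.42e-04). Fgf21, the gene of a secreted metabolic hormone, was near the limit of detection. It had 23, 62 and 17 reads in cKO WAT and 18, 6 and 4 reads in WT WAT. The groups overlapped, and the log2 fold change of 1.03 had a 95% interval from -0.81 to 2.87 (adjusted p = 0.300). Without cKO replicate 2, which holds most of its cKO reads, the log2 fold change was 0.20.

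**Figure D2:**
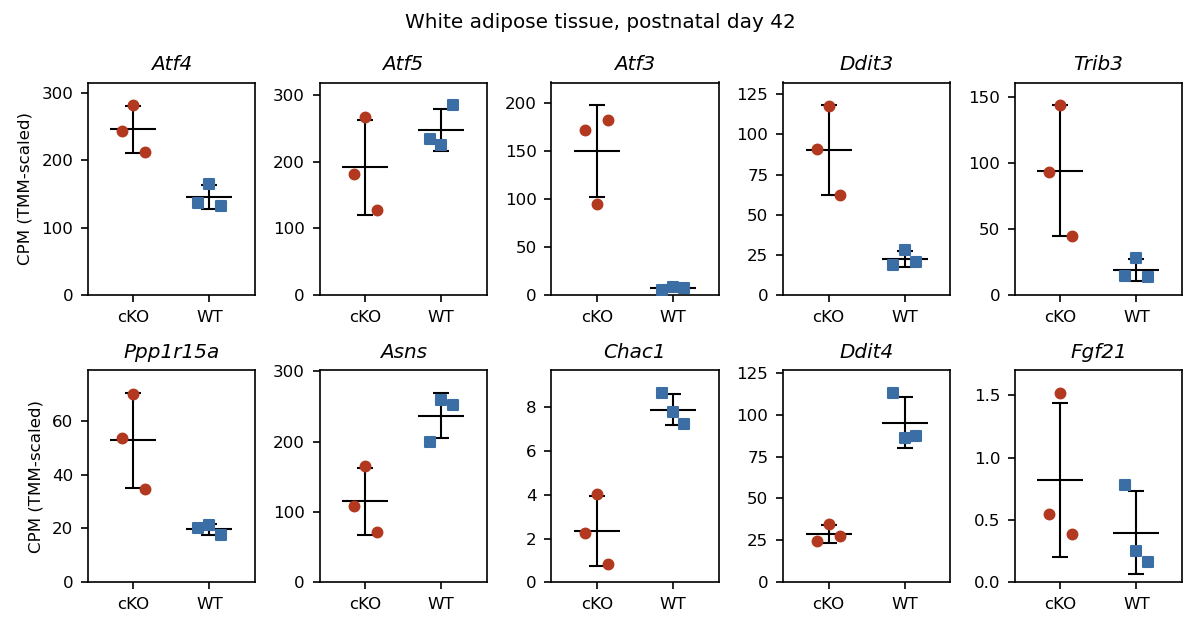
Level of each integrated stress response gene in white adipose tissue in CPM (vertical axes, from 0, each with its own scale) in cKO and WT libraries. Points are libraries, and lines and bars are means with SD (n = 3). The cKO points lie above the WT points for Atf4, Atf3, Ddit3, Trib3 and Ppp1r15a and below them for Asns, Chac1 and Ddit4.

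Within the cKO WAT group the members varied together. Replicate 2 was the highest cKO library for 9 of the 10 members, against 38.9% of all genes. Atf3 was the exception, with its lowest cKO level in replicate 2. Replicate 3 was the lowest cKO library for 8 members, against 37.7% of all genes. The summed level of 12 mature adipocyte markers ran in the same order as those 8 members, at 12298, 22712 and 8933 CPM in cKO replicates 1 to 3, against 69882 to 73767 CPM in WT libraries. It was thus highest in the replicate in which 9 members were highest. Of these markers, 11 of 12 passed as lower in cKO WAT. Adipoq itself was at 908, 1931 and 614 CPM in cKO WAT, against 4609, 5370 and 5041 CPM in WT WAT.

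The summed level of 12 macrophage markers ran the other way, at 5421, 2560 and 5736 CPM in cKO replicates 1 to 3, against 463 to 710 CPM in WT libraries, with 11 of 12 markers higher. Atf3 had the same order over the cKO libraries as this sum. Of all genes, 39.9% were lowest in cKO replicate 2 and 35.4% were highest in cKO replicate 3. Adgre1, the gene of F4/80, was at 308, 146 and 389 CPM in cKO WAT, against 21.5, 19.5 and 31.7 CPM in WT WAT. Summed pre-adipocyte and fibroblast markers were at 1877 to 2607 CPM in cKO WAT, against 987 to 1098 CPM in WT WAT, with 6 of 10 higher. Summed endothelial markers were at 547 to 826 CPM in cKO WAT, against 997 to 1403 CPM in WT WAT, with 5 of 8 lower and 1 higher. None of the 12 macrophage or 12 adipocyte markers was at 0 in either WAT group, with reads summed over its libraries. The part of these shifts in cell markers in the members' changes was not tested.

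In the KO cultures 5 members passed, all of which also passed in WAT, 3 of them with the opposite sign. Ddit3 and Asns were higher in KO, by 1.43-fold and 1.35-fold. Ddit4, Atf3 and Ppp1r15a were lower, by 1.31-fold to 2.01-fold. Atf4, Atf5, Trib3 and Chac1 did not pass, and Fgf21 had too few reads to be tested. Of 12587 genes tested, 8.94% were called higher and 10.6% lower, against 2 and 3 of the 9 members tested. The groups of these 5 members did not overlap, 2 higher and 3 lower, as for 18.0% and 18.8% of all genes. The median log2 fold change was 0.09 for the members and -0.02 for all genes tested. The members' median was below 0 without WT replicate 3 (-0.0908) or KO replicate 1 (-0.00794).

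Ddit4 was at 59.6, 63.1 and 65.5 CPM in KO cultures, against 128, 149 and 101 CPM in WT cultures. Its log2 fold change of -1.01 (SE 0.13, adjusted p = 1.09e-05) was the largest of the members in culture, and no alternative ended this call. Atf3 was at 49.2, 59.1 and 46.4 CPM in KO cultures, against 79.7, 103 and 62.3 CPM in WT cultures (log2 fold change -0.66, SE 0.14, adjusted p = 0.00289). All KO libraries were below all WT libraries, by little between KO replicate 2 and WT replicate 3. Ppp1r15a was at 41.7, 38.1 and 41.5 CPM in KO cultures, against 57.4, 56.7 and 44.9 CPM in WT cultures (log2 fold change -0.39, SE 0.12, adjusted p = 0.0264).

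Ddit3 was at 54.6, 45.1 and 41.4 CPM in KO cultures, against 30.4, 34.2 and 33.3 CPM in WT cultures. The log2 fold change was 0.52 (SE 0.13, adjusted p = 0.00613), and it was 0.19 after removal of the length and GC trend (adjusted p = 0.170). Asns was at 349, 283 and 290 CPM in KO cultures, against 236, 230 and 217 CPM in WT cultures (log2 fold change 0.43, SE 0.11, adjusted p = 0.00912). Every KO library was above every WT library for both genes. Single libraries held up some of these calls. Asns did not pass without KO replicate 1 (0.33, adjusted p = 0.0598), and Atf3 did not pass without WT replicate 2 (-0.44, adjusted p = 0.0648). Ppp1r15a did not pass without KO replicate 2 (-0.35, adjusted p = 0.126), WT replicate 1 (-0.32, adjusted p = 0.117) or WT replicate 2 (-0.33, adjusted p = 0.170). In 1 fit over all 4 groups, where the wider spread of WAT enters, Ddit4 alone among the members passed.

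Atf4 was at 402, 349 and 323 CPM in KO cultures and at 348, 354 and 305 CPM in WT cultures, so that the groups overlapped. Its log2 fold change was 0.09 with a 95% interval of -0.14 to 0.33 (adjusted p = 0.608). The interval for Atf5 was -0.31 to 0.23, for Trib3 -0.11 to 0.40 and for Chac1 -0.25 to 0.46, and their adjusted p were 0.862, 0.438 and 0.704. Trib3 was at 42.1, 39.0 and 35.7 CPM in KO and at 34.8, 39.3 and 31.2 CPM in WT cultures. Chac1 was at 13.0, 11.8 and 10.4 CPM in KO and at 10.4, 13.0 and 9.11 CPM in WT cultures. Atf5 was at 224, 203 and 175 CPM in KO and at 238, 218 and 161 CPM in WT cultures. These 3 genes overlapped between the groups. Fgf21 had 5, 19 and 12 reads in KO and 8, 17 and 2 reads in WT cultures, too few to read a difference at this depth.

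**Figure D3:**
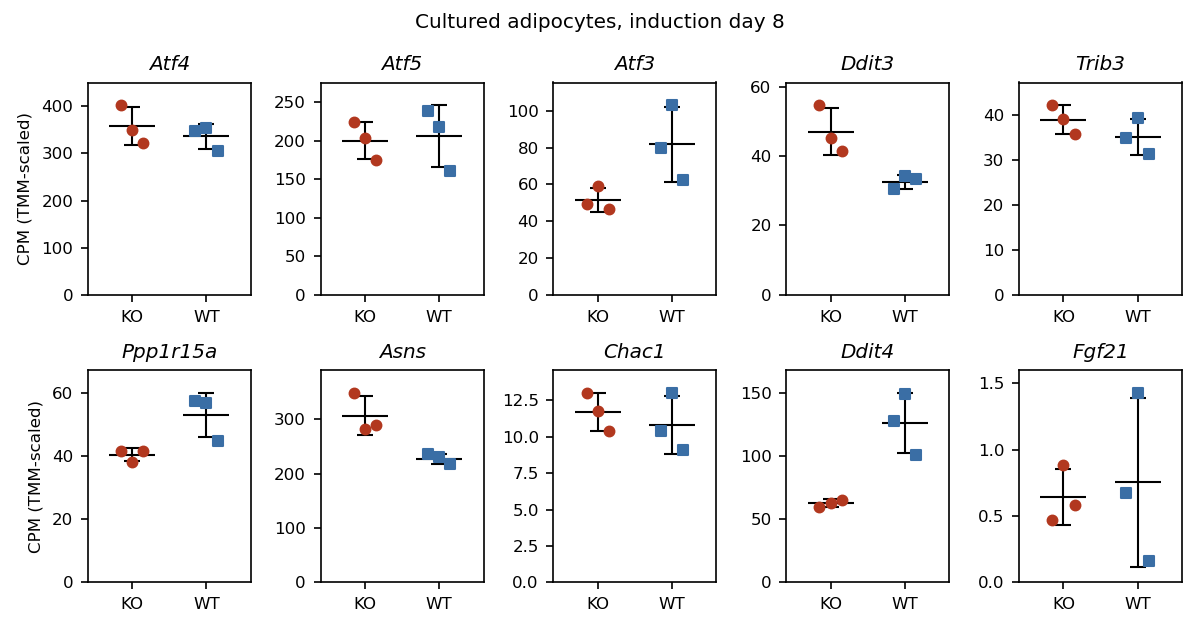
Level of each integrated stress response gene in cultured adipocytes on induction day 8 in CPM (vertical axes, from 0, each with its own scale) in KO and WT libraries. Points are libraries, and lines and bars are means with SD (n = 3). The KO points lie above the WT points for Ddit3 and Asns and below them for Atf3, Ppp1r15a and Ddit4.

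Markers of other cells also moved in culture. The 12 macrophage markers summed to 3061, 3325 and 2915 CPM in KO cultures, against 4122, 4478 and 4060 CPM in WT cultures, with 5 of 12 lower. Adgre1 was at 165, 177 and 151 CPM in KO and at 154, 165 and 178 CPM in WT cultures, so macrophage marker RNA was present in both. Endothelial markers summed to 249 to 288 CPM in KO cultures, against 325 to 405 CPM in WT cultures, with 3 of 8 lower. Pre-adipocyte and fibroblast markers summed to 1687 to 1899 CPM in KO cultures, against 2017 to 2147 CPM in WT cultures, with 1 of 9 higher and 3 lower. The mature adipocyte markers summed to 31426, 26617 and 29093 CPM in KO cultures, against 20347 to 22260 CPM in WT cultures, with 5 of 11 higher and 2 lower. Adipoq was at 3036, 2720 and 2662 CPM in KO cultures, against 2118, 2003 and 1967 CPM in WT cultures. Mitochondrially encoded genes took 11.1%, 13.9% and 15.1% of counts in KO cultures and 8.90%, 9.33% and 12.1% in WT cultures. KO replicate 1 was the highest KO library for 7 of the 9 tested members, against 38.3% of all genes, and it is the KO library with the lowest total. The part of these differences in the members' changes was not tested. With all culture libraries thinned to the smallest total, or with mitochondrially encoded genes left out, the same 5 members passed.

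The effects in WAT and in culture share no libraries, and an interaction term fitted to the 12 libraries tested their difference in 14463 genes. It passed in 8 of the 10 members, and in 48.8% of all genes in either direction. For 3 members the calls had opposite signs. Atf3 was higher in cKO WAT and lower in KO cultures, with a difference between the log2 fold changes of 5.12 (WAT minus culture, SE 0.37, adjusted p = 2.58e-06). Ppp1r15a did the same, with a difference of 1.84 (SE 0.29, adjusted p = 2.54e-04). Asns was lower in cKO WAT and higher in KO cultures, with a difference of -1.45 (SE 0.32, adjusted p = 0.00274).

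The rise of Ddit3 was larger in WAT than in culture by 1.52 on the log2 scale (SE 0.30, adjusted p = 0.00119). The differences for Trib3 and Atf4, which passed in WAT alone, were 2.20 (SE 0.49, adjusted p = 0.00275) and 0.71 (SE 0.20, adjusted p = 0.0101). Chac1 differed by -1.82 (SE 0.54, adjusted p = 0.0137), which was -1.18 with library size only (adjusted p = 0.0705). Ddit4 was the member that was lower in knockout in both settings. Its difference of -0.67 (SE 0.23, adjusted p = 0.0305) was -0.02 with library size only (adjusted p = 0.947), and the call was lost under 10 of 19 alternatives. Atf5 (-0.30, adjusted p = 0.469) and Fgf21 (1.25, adjusted p = 0.374) did not pass. The 2 settings differ in age, cell mixture, medium and sequencing depth as well, and these cannot be told apart.

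**Figure D4:**
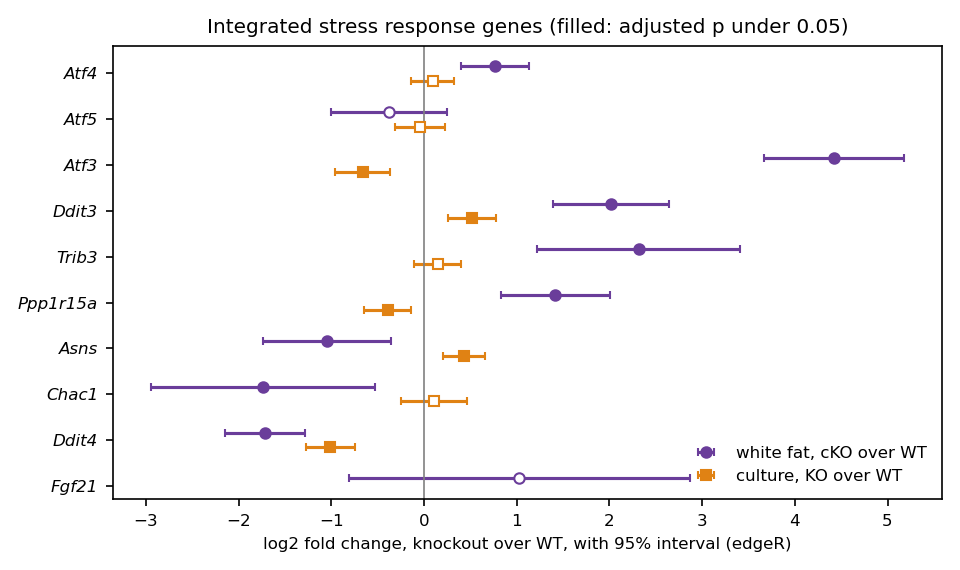
Log2 fold change of each integrated stress response gene, knockout over WT, with its 95% interval (horizontal axis), in white adipose tissue and in culture; filled symbols passed at an adjusted p under 0.05. Atf3 lies at 4.43 in white adipose tissue and at -0.66 in culture, while Ddit4 lies below 0 in both.

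On a scale of CPM per kilobase of transcript, on which levels of different genes can be set side by side, the order of the members differed between groups. The length used was that of the longest annotated transcript of each gene, which need not be the one expressed. Close ranks therefore depend on that choice. In cKO WAT the highest means were those of Atf4 (122 ± 17.3), Atf5 (106 ± 39.3), Ddit3 (93.2 ± 28.8) and Atf3 (75.4 ± 24.0, SD, n = 3), neighbours whose differences lay within their spread. In WT WAT Atf5 (137 ± 17.5) and Asns (118 ± 16) led, within their spread of each other, and Atf4 (71.7 ± 8.75) and Ddit4 (54.2 ± 8.60) followed. Atf3 stood ninth of the members in WT WAT, at 3.50 ± 0.851 CPM per kilobase, below Chac1 at 4.83 ± 0.441. In KO cultures Atf4 (177 ± 20.1) and Asns (152 ± 17.9) led, ahead of Atf5 (110 ± 13.5). In WT cultures Atf4 (166 ± 13.2) led Atf5 (113 ± 21.9) and Asns (113 ± 4.78), which did not differ beyond their spread. Fgf21 was the lowest member in all 4 groups, at 0.861 ± 0.647 in cKO WAT, 0.421 ± 0.353 in WT WAT, 0.679 ± 0.224 in KO cultures and 0.793 ± 0.671 CPM per kilobase in WT cultures. Chac1 was at 1.45 ± 0.977 in cKO WAT, 7.17 ± 0.814 in KO cultures and 6.62 ± 1.22 CPM per kilobase in WT cultures.

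The rest of the pathway was read from lists of its known parts. In WAT the scaling matters for their balance, since the log2 fold changes of all genes tested had a median of 0.12 with TMM and of 0.80 with library size only, so the counts of higher and lower genes under the second scaling are given too. Of all genes tested in WAT, 28.2% were higher and 24.2% lower with TMM, against 54.2% and 8.76% with library size only. In culture 8.94% were higher and 10.6% lower. With lists of 4 to 20 genes, counts near these shares are no result about a list. Among the 4 eIF2alpha kinases, Eif2ak2 (PKR), which double-stranded RNA activates and interferon raises, had a log2 fold change of 1.14 in cKO WAT (SE 0.13, adjusted p = 8.94e-04). Eif2ak1 (HRI) was lower (-0.53, SE 0.10, adjusted p = 0.00512), which was 0.15 with library size only. Eif2ak3 (PERK), the kinase of endoplasmic reticulum stress, did not pass (0.12, adjusted p = 0.581), but it was higher with library size only (0.81, adjusted p = 0.00858). With library size only, 3 kinases were higher and 0 lower. No kinase passed in culture, where Eif2ak4 (GCN2) was at 0.21 (adjusted p = 0.243, and 0.34 with 0.0167 after removal of the length and GC trend), Eif2ak3 at -0.09 (adjusted p = 0.685) and Eif2ak1 at -0.08 (adjusted p = 0.654).

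Of 12 subunits of eIF2, eIF2B and the eIF2alpha phosphatases, 2 were higher and 6 lower in cKO WAT, against 6 and 2 with library size only. After removal of the length and GC trend, 0 were higher and 7 lower. In the main fit the lower ones were all 5 eIF2B subunits and Ppp1ca. Ppp1ca, a catalytic subunit of protein phosphatase 1, had a log2 fold change of -1.43 (SE 0.13, adjusted p = 6.04e-04). Eif2b5, the catalytic subunit of eIF2B, was at -1.17 (SE 0.13, adjusted p = 8.28e-04), and the other eIF2B subunits, named after their values were seen, were between -1.15 (Eif2b3) and -0.65 (Eif2b1). Ppp1r15b, the constitutive partner of Ppp1r15a, did not pass in WAT (0.16, adjusted p = 0.326) or in culture (-0.16, adjusted p = 0.343). With library size only it was higher in WAT (0.84, adjusted p = 0.00115). In KO cultures 4 of the 12 were higher and 0 lower. Eif2s1, the gene of eIF2alpha itself, was at 0.44 (SE 0.11, adjusted p = 0.00765), and Eif2b3 at 0.46 (SE 0.12, adjusted p = 0.00905). Eif2s1 did not pass after removal of the length and GC trend (0.19, adjusted p = 0.0872), nor Eif2b3 without WT replicate 2 (0.47, adjusted p = 0.0501).

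Among 13 ATF4 partners and other stress transcription factors, 4 were higher and 4 lower in cKO WAT (7 and 3 with library size only). Nfe2l2 (NRF2), a regulator of oxidative stress genes, was at 1.35 (SE 0.15, adjusted p = 8.35e-04) and Fos at 3.60 (SE 0.46, adjusted p = 0.00116). The partner gene Cebpg (0.16, adjusted p = 0.404) and the stress gene Nupr1 (-0.16, adjusted p = 0.688) did not pass. Cebpg was called in opposite directions by alternatives, higher with library size only (0.83, adjusted p = 0.00262) and lower after removal of the length and GC trend (-0.42, adjusted p = 0.0276). In KO cultures 0 were higher and 7 of 12 lower, among them Cebpb (-1.40, SE 0.29, adjusted p = 0.00198) and Cebpd (-0.55, SE 0.14, adjusted p = 0.00856), both early regulators of adipogenesis. Cebpb was at 96.2, 98.8 and 20.3 CPM in KO cultures, against 208, 177 and 182 CPM in WT cultures, with KO replicate 3 far below the others. DESeq2 did not call it (adjusted p = 0.117), and Cebpd did not pass without WT replicate 1 (-0.38, adjusted p = 0.0775). Cebpg (0.26, adjusted p = 0.166) and Nupr1 (0.25, adjusted p = 0.157) did not pass, though Nupr1 was higher without WT replicate 3 (0.39, adjusted p = 0.0188). Immediate early genes, of which Fos, Jun and Junb are also on the partner list, were higher in 7 and lower in 1 of 16 in cKO WAT (13 and 0 with library size only). They were higher in 0 and lower in 6 of 15 in KO cultures. Klf6 was at 1.58 in cKO WAT (SE 0.17, adjusted p = 7.37e-04), and Ier3 at -0.88 (SE 0.13, adjusted p = 6.59e-05) and Zfp36 at -0.63 (SE 0.12, adjusted p = 8.76e-04) in KO cultures. These genes include early responders to tissue handling, and Atf3 is often counted with them. Their sum was 554 to 776 CPM in cKO WAT and 447 to 529 CPM in WT WAT, and 427 to 457 CPM in KO and 519 to 622 CPM in WT cultures. The part of handling in the change of Atf3 was not tested.

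Amino acid genes that ATF4 raises were called in both directions in cKO WAT, at shares near those of all genes for synthesis and transport. Of 13 genes of amino acid and one-carbon synthesis, 5 were higher and 4 lower (7 and 2 with library size only). Phgdh (-2.14, SE 0.21, adjusted p = 6.33e-04) and Psph (-2.03, SE 0.23, adjusted p = 8.28e-04), both enzymes of serine synthesis, were lower, as Asns was. Psat1, the enzyme between these steps, was at -0.45 (adjusted p = 0.143) and passed as lower without cKO replicate 2 (-0.74, adjusted p = 0.00966). Mthfd2, a mitochondrial folate enzyme, was higher (1.33, SE 0.18, adjusted p = 0.00149). Of 10 amino acid transporters, 3 were higher and 2 lower (4 and 2 with library size only). Slc43a1 was the lowest (-3.13, SE 0.41, adjusted p = 0.00120), while Slc7a5, a carrier of large neutral amino acids, was higher (1.52, SE 0.20, adjusted p = 0.00128). Slc7a11, the cystine carrier, was higher (1.46, SE 0.45, adjusted p = 0.0288) but not after removal of the length and GC trend (0.53, adjusted p = 0.372), nor with no count filter (adjusted p = 0.0558), nor without any 1 library other than WT replicate 3 (adjusted p 0.0691 to 0.0989). Of 20 aminoacyl-tRNA synthetases, 4 were higher and 6 lower (8 and 1 with library size only), with Mars1 at -1.34 (SE 0.13, adjusted p = 6.33e-04) and Kars at -0.87 (SE 0.11, adjusted p = 0.00124). Kars did not pass with library size only (-0.19, adjusted p = 0.177).

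In KO cultures, of the 13 synthesis genes 2 were higher and 0 lower. They were Cbs (0.79, SE 0.17, adjusted p = 0.00220) and Cth (0.51, SE 0.17, adjusted p = 0.0368), the enzymes that make cysteine from homocysteine. The Cth call was lost without KO replicate 1 or 2 or WT replicate 1 or 2, with library size only (0.45, adjusted p = 0.0596) and after removal of the length and GC trend (0.23, adjusted p = 0.275). Psat1 (0.20, adjusted p = 0.190) and Mthfd2 (0.13, adjusted p = 0.447) did not pass. Of the transporters 0 were higher and 2 lower, Slc7a1 (-0.66, SE 0.17, adjusted p = 0.00940) and Slc7a5 (-0.39, SE 0.12, adjusted p = 0.0319), and Slc7a11 did not pass (0.68, adjusted p = 0.321). Slc7a5 did not pass without KO replicate 1 or 3 or WT replicate 1 or 2 (adjusted p up to 0.179), nor after removal of the length and GC trend (-0.22, adjusted p = 0.0987). Slc7a1 did not pass without WT replicate 2 (-0.53, adjusted p = 0.0875). Of the synthetases 7 were higher and 0 lower, with Dars at 0.54 (SE 0.12, adjusted p = 0.00314) and Lars at 0.45 (SE 0.11, adjusted p = 0.00627). Dars did not pass after removal of the length and GC trend (0.22, adjusted p = 0.0595), and Lars did not pass without WT replicate 2 (0.43, adjusted p = 0.0527).

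Gdf15, the gene of a stress hormone and a target of ATF4 and CHOP, was at 62.7, 109 and 32.7 CPM in cKO WAT, against 1.48, 1.63 and 0.951 CPM in WT WAT (log2 fold change 5.65, SE 0.51, adjusted p = 5.76e-04). Like 9 of the members, it was highest in cKO replicate 2. In culture the same gene was at 49.2, 53.9 and 43.0 CPM in KO, against 134, 162 and 89.9 CPM in WT (-1.40, SE 0.15, adjusted p = 1.42e-06). The culture call was lost in 1 fit over all 4 groups (-1.39, adjusted p = 0.0650). Its order of groups in both settings was that of Atf3, higher in cKO WAT and lower in KO cultures. Of the 16 other targets of ATF4 and CHOP, 5 were higher and 5 lower in cKO WAT (9 and 3 with library size only), among the lower Map1lc3b, an autophagy gene (-1.15, SE 0.15, adjusted p = 0.00116). In KO cultures 0 were higher and 2 lower, Gdf15 and Sesn2. Sesn2, a stress-induced inhibitor of mTORC1, was at -0.44 in cKO WAT (adjusted p = 0.343) and at -0.39 in KO cultures (adjusted p = 0.0347). The culture call for Sesn2 was lost when any of 5 single libraries was left out and after removal of the length and GC trend (-0.19, adjusted p = 0.144).

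Genes of the unfolded protein response, which accompanies the integrated stress response when PERK is active, were read for comparison. Of 17 such genes, 7 were higher and 1 lower in cKO WAT (14 and 0 with library size only). After removal of the length and GC trend, 7 were higher and 2 lower. The median log2 fold change of this list was then -8.79e-04, against 0.20 in the main fit. Hspa5 (BiP), its main chaperone, was at 1.02 (SE 0.21, adjusted p = 0.00579), Hsp90b1 at 1.45 (SE 0.19, adjusted p = 0.00118) and Sdf2l1 at 1.46 (SE 0.23, adjusted p = 0.00238). In KO cultures 0 of 17 were higher and 1 was lower, Ern1 (-0.75, SE 0.20, adjusted p = 0.0108), the gene of the sensor IRE1. Ern1 did not pass without KO replicate 1 (-0.56, adjusted p = 0.0589) or WT replicate 2 (-0.59, adjusted p = 0.0934). Hspa5 (0.20, adjusted p = 0.225) and Hsp90b1 (0.30, adjusted p = 0.0743) did not pass in culture. Hsp90b1 passed as higher under 5 alternatives, among them DESeq2 (0.31, adjusted p = 0.0426), limma voom (0.31, adjusted p = 0.0484) and leaving out WT replicate 3 (0.43, adjusted p = 0.00829). Glucocorticoid-induced genes were read beside Ddit4, which glucocorticoids raise and which was lower in both settings. Of these 10 genes 1 was higher and 3 lower in cKO WAT (2 and 0 with library size only), with Sgk1 at -0.81 (SE 0.15, adjusted p = 0.00379) and Mt1 at -1.12 (SE 0.20, adjusted p = 0.00400), and neither passed with library size only. In KO cultures 0 were higher and 1 was lower, Dusp1 (-0.44, SE 0.15, adjusted p = 0.0363), and Sgk1 did not pass (-0.34, adjusted p = 0.0534). Sgk1 passed as lower with library size only (-0.40, adjusted p = 0.0243) and after removal of the length and GC trend (-0.39, adjusted p = 0.00945). It also passed with a replicate block (adjusted p = 0.0116) and without WT replicate 1 (0.0369). Of the 10 list genes, 3 were lower with library size only and 4 after removal of that trend. Of 12587 genes tested, 1765 and 1378 were. Dusp1 did not pass without KO replicate 2 (-0.44, adjusted p = 0.0995) or 3 (-0.36, adjusted p = 0.128), or WT replicate 1 (-0.41, adjusted p = 0.107) or 2 (-0.33, adjusted p = 0.244).

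**Figure D5:**
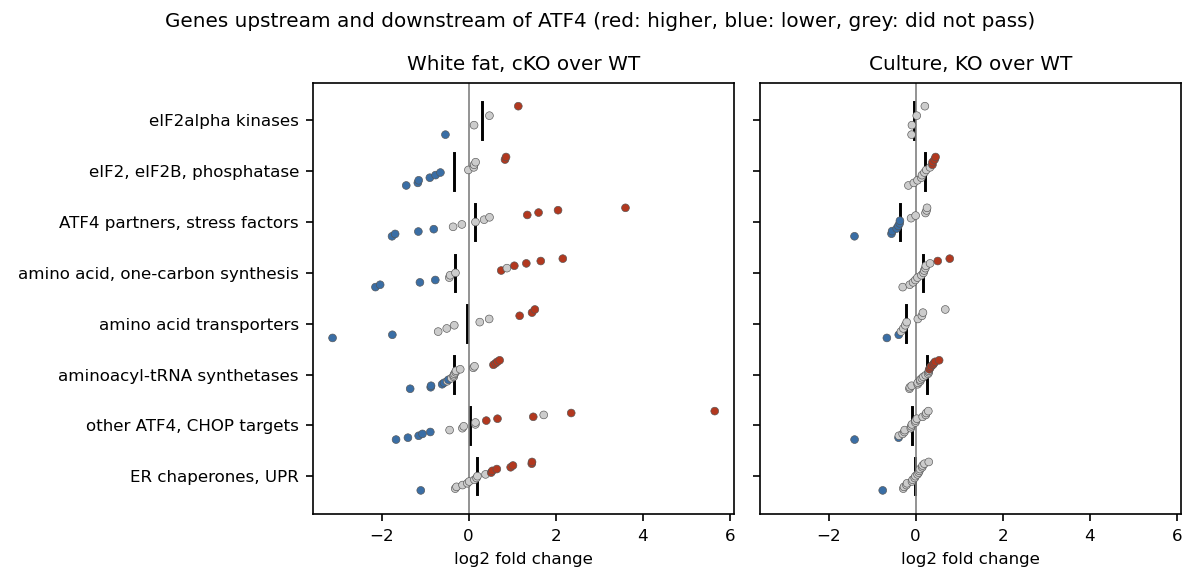
Log2 fold change, knockout over WT (horizontal axis, same scale in both panels), of every tested gene on 8 lists around ATF4, in white adipose tissue and in culture; red points are higher and blue points lower at an adjusted p under 0.05, grey points did not pass, and black bars are list medians. Gdf15 is the rightmost point in white adipose tissue (5.65) and the lowest of its list in culture (-1.40), and with library size only more genes of these lists were higher in white adipose tissue.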

How the data were processed

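Per the labels, RNA was purified with TRIzol and sequenced from MGIEasy mRNA libraries. The deposited values are whole read counts of each gene with no normalization, in a WAT table and a culture table. FastQC 0.11.2, HISAT2 2.1.0 and cutadapt 1.11 are listed in the submitters' processing notes with the build GRCm38. How reads were counted, with which annotation and strand setting, is not given in the sources used here, so genes that overlap or lie antisense to each other may share reads. No numbered copy of a member is listed.

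Groups came from the sample titles. No 2 libraries of a group were alike within counting error (chi-square over its degrees of freedom 4.98 to 215), and all 12 were used. Each comparison was fitted on all genes of its own table with edgeR 4.0.16 in R 4.3.3 (quasi-likelihood test, filterByExpr with a minimum count of 10, TMM scaling, Benjamini-Hochberg adjusted p under 0.05). The biological coefficient of variation was 0.319 for WAT and 0.114 for culture. The SE is the size of the log2 fold change over the square root of F, and 95% intervals use the fit's degrees of freedom. The difference between both effects was an interaction over the 12 libraries.

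The alternatives were RLE size factors, library size only, no count filter, a replicate block, DESeq2 1.42.0, limma voom (limma 3.58.1), removal of a trend with transcript length and GC content (known for 85.8% of the tested WAT genes and 98.0% of the culture genes), each library left out, 1 fit over all 4 groups, a 2-fold minimum, summed numbered copies, thinned culture libraries, no mitochondrially encoded genes, and a stricter promoter motif. The scripts were tested on simulated counts. The text names all members and, per list and comparison, the 2 genes with the smallest p plus a few listed genes. Members and lists were chosen with earlier results of these data known.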

Additional observations from a re-analysis of the deposited data

Results flagged for a closer look

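For 8 of the 10 integrated stress response genes the effect of the knockout differed between WAT and culture in the interaction test of edgeR (WAT minus culture, log2 scale). Atf3 differed by 5.12, Trib3 by 2.20, Ppp1r15a by 1.84, Ddit3 by 1.52 and Atf4 by 0.71. Chac1 differed by -1.82, Asns by -1.45 and Ddit4 by -0.67. The adjusted p lay between 2.58e-06 (Atf3) and 0.0305 (Ddit4), and 48.8% of all genes tested also differed. The Ddit4 call was lost under 10 of 19 alternatives, and that of Chac1 with library size only (adjusted p = 0.0705). Tissue and culture differ in cell mixture, age and depth, which cannot be told apart from the effect of the setting.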

How the results depend on the processing

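Of the values of single genes under the alternatives, 534 of 570 in WAT, 519 of 592 in culture and 178 of 190 for the difference kept their direction and side of the threshold. With library size only, WAT had 8838 genes higher and 1427 lower and 1 member lower, and the difference was positive in 7331 genes, negative in 1198 and negative in 1 member. In culture, 1 fit over all 4 groups called 58 genes higher and 88 lower, with 0 members higher and 1 lower. It also ended the culture calls of Cebpb, Cebpd, Cbs, Cth, Slc7a1, Slc7a5, Dars, Lars, Eif2s1, Eif2b3, Ern1, Dusp1, Zfp36, Gdf15 and Sesn2. A 2-fold minimum left 0 members higher and 1 lower, and removal of the length and GC trend left 1 higher. The replicate block called 1816 and 2008 culture genes, but the labels do not say whether shared numbers mark pairs. Correlations of same-numbered libraries were -0.354 to 0.0206 in WAT and 0.0459 to 0.289 in culture. In culture every library but WT replicate 2 correlated best with its own number. In WAT a differently numbered pair, cKO replicate 1 and WT replicate 3, reached 0.383, above every same-numbered culture value. Values were centred within each group, so these correlations depend on each other and cannot decide pairing. Whether the culture libraries were paired is therefore not known. The stricter motif matched 3 members. With 1 library left out, culture calls ranged from 399 (without WT replicate 2) to 1715 (without WT replicate 3) higher and from 498 to 1665 lower over the same libraries, members from 1 to 2 higher (1 without KO replicate 1) and 1 to 3 lower (1 without WT replicate 2). WAT members were 1 to 4 lower, with 1 without cKO replicate 1, WT replicate 2 or WT replicate 3 and 4 without cKO replicate 2. Without KO replicate 2, 664 genes were higher and 847 lower. Without KO replicate 1 the counts were 699 and 829, and without WT replicate 1 they were 687 and 812.

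Some signs turned, among them that of Eif2ak1, a call in WAT, at 0.15 with library size only. With the same scaling the others were, in WAT, Atf5 (0.30), Sesn2 (0.23), Psat1 (0.23) and Nupr1 (0.52), and for the difference Atf5 (0.34). After removal of the length and GC trend they were Atf5 (0.0053), Ppp1r15b (-0.0188) and Cebpg (-0.42, past the threshold) in WAT and Atf5 (0.0759) and Eif2ak3 (0.0298) in culture. With 1 library left out, WAT values of Nupr1 ranged from -0.42 to 0.0773, above 0 without cKO replicate 3 or WT replicate 2. Culture values of Atf5 ranged from -0.181 to 0.0843, above 0 without KO replicate 3, WT replicate 1 or WT replicate 2, and those of Chac1 from -0.00044 (without WT replicate 3) to 0.275. The cause was not tested. Fgf21, with 2 to 62 reads, is limited by depth.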
